A study of Homo sapiens and Mus musculus with 14 samples.

Results

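Potassium channel genes were taken as every human protein-coding gene whose symbol is KCN, a letter from A to V, and then a digit or a letter and a digit. The rule gave 95 of 19974 protein-coding genes on the primary chromosomes without Y. By role, 40 encode voltage-gated pore subunits, 3 Kv beta subunits, 4 KChIP calcium sensors, 5 single-span KCNE subunits and 16 inward rectifiers. A further 15 encode tandem-pore (K2P) leak channels, 8 pore subunits of the calcium- and sodium-activated channel family, and 4 beta subunits of the large-conductance BK channel. Chromatin accessibility was measured by ATAC-seq, in which a transposase cuts open DNA, in MDA-MB-436, an established human breast adenocarcinoma line. There were 3 libraries of SMARCAL1 knockout clone 1 (batch 1), 2 libraries of SMARCAL1 knockout clone 2 (batch 2) and 3 libraries of control cells (batch 1). SMARCAL1 is an enzyme that anneals single-stranded DNA at stalled replication forks. Each knockout arm is 1 clone whose disrupted gene the peaks cannot check, and clone 2 and its batch cannot be told apart. The other 6 of the 14 samples, 3 Smarcal1 knockout and 3 reconstituted libraries of the mouse melanoma line B16F10, are not analysed here.

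Potassium channels let potassium ions leave or enter the cell along their gradient and set the resting membrane potential. The voltage-gated, calcium-activated, inward rectifier and leak families differ in what opens them, and beta, KChIP and KCNE proteins tune the gating or the surface level of the pore subunits they bind. Many of these genes are known for restricted use in neurons, heart, muscle or kidney, while some leak and calcium-activated channels are also found in epithelial and tumour cells. An accessible site at a start site or inside a gene marks DNA that regulatory proteins can reach. It does not measure how much of the gene is transcribed.

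The data are 1 merged peak list for each of the 3 arms, with a score per peak from the authors' caller that is read here, from its values, as −log10 of a p-value. There are no values per replicate and no test between arms. Intervals below are exact 95% binomial intervals unless named otherwise. They cover counting error only and treat peaks as independent, although peaks of 1 gene share their surroundings. The lists held 39537 peaks in clone 1, 34572 in clone 2 and 64806 in control, with median scores of 6.07, 11 and 6.26 and median widths of 453, 200 and 399 bp. The read depth is unknown and scores follow from each call's own depth, so a score is read only against its own list. The cells are a bulk population, so a site open in fewer cells and a site less open in each cell cannot be told apart. As a check of the label, EPCAM, VIM and CDH2 among 9 breast and mesenchymal markers had a peak at a gene end in all 3 lists. KRT5 and KRT14 had none in any list, KRT8 and KRT18 had one in control only, ZEB1 in clone 1 and control, and CDH1 in clone 1 only. Of 8 markers of leukocytes, melanocytes, endothelium and neurons, SYP had such a peak in all 3 lists, PTPRC in clone 2 only, and CD3E, MLANA, TYR, PECAM1, CDH5 and RBFOX3 in no list.

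In and around the potassium channel genes, about as large a share of the control peaks was missing from the clones as over the whole list, and the weak peaks were the ones most often missing. Peaks were counted in each gene body and 10 kb on either side, 13.6 Mb in all. These windows held 190 clone 1 peaks, 170 clone 2 peaks and 353 control peaks, which is 14.0, 12.5 and 25.9 peaks per Mb, against 16.5, 14.6 and 26.2 per Mb in the windows of all protein-coding genes. A control peak was called absent in a clone when no clone peak overlapped it by at least 1 bp. Absent were 221 of the 353 in clone 1 (62.6%, 57.3 to 67.7), against 57.9% of all control peaks. In clone 2 210 were absent (59.5%, 54.2 to 64.7), against 57.1%, and 176 were absent in both clones (49.9%, 44.5 to 55.2), against 46.7%. All 3 intervals include the share of the whole list. Among control peaks above the median score of their list the absent shares were 36.1% in clone 1, 29.0% in clone 2 and 20.7% in both, against 32%, 29% and 19% of all such peaks. With at least 50% of the control peak overlapped 88.4% were absent in clone 2, against 86% of the whole list. Set against peaks of the same control score decile, the members had 132 peaks found in clone 1 where 134.4 would be found at the rate of the whole list, a ratio of 0.98, and 143 found in clone 2 where 136.7 would be, a ratio of 1.05. The windows of all other protein-coding genes had absent shares of 53.7% in clone 1, 55.0% in clone 2 and 43.9% in both, of which the members' intervals include that of clone 2.

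Both clones' own peaks in these windows were mostly sites that control also had. Of the 190 clone 1 peaks 56 overlapped no control peak (29.5%, 23.1 to 36.5), against 30.7% over the clone 1 list. Of the 170 clone 2 peaks 15 overlapped none (8.82%, 5.02 to 14.1), against 11.1% over the clone 2 list.

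Peaks were concentrated in a few long genes. The 10 members with the most control peaks were KCNIP4, KCNMA1, KCNQ5, KCNT2, KCNQ3, KCNIP1, KCNB2, KCNH1, KCNJ6 and KCND2. KCNIP4 (chr4:20728606-21948772, minus strand, hg38), which encodes a KChIP sensor that modulates A-type channels and is 1220.2 kb long, held 18 clone 1, 18 clone 2 and 37 control peaks. KCNMA1 (chr10:76869602-77637808, minus strand), the pore of the BK channel, held 16, 9 and 24. KCNQ5 (chr6:72622064-73198853, plus strand), a subunit of the M-type current, held 12, 13 and 21. In each of these genes both clones had fewer peaks than control. KCNT2, a sodium-activated channel, held 10, 6 and 21, and KCNB2, a delayed rectifier, held 1, 4 and 12. Of the 80 members with a control peak, 53 had fewer peaks in clone 1 (66.3%, against 59.3% of all genes with a control peak) and 59 had fewer in clone 2 (73.8%, against 66.4%). Clone 1 had more peaks than control at 5 of them, KCNG1, KCNJ9, KCNJ11, KCNN1 and KCNS3, and clone 2 at 6, KCNC2, KCNH5, KCNJ9, KCNMB2, KCNN2 and KCNS3.

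**Figure D1:**
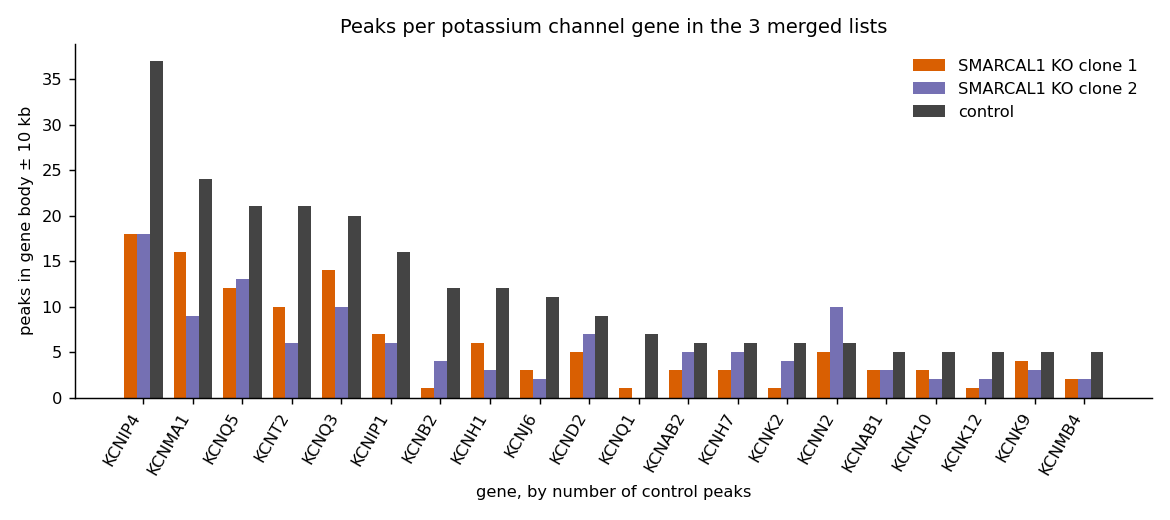
Number of ATAC-seq peaks in the gene body and 10 kb on either side (vertical axis) in the merged lists of clone 1, clone 2 and control, for the 20 potassium channel genes with the most control peaks (horizontal axis). KCNIP4 held 18 clone 1, 18 clone 2 and 37 control peaks, and KCNN2, with 5, 10 and 6, is the 1 gene shown where a clone list held more peaks than control.

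At the gene ends, where promoters lie, a smaller share of potassium channel genes than of all genes had a peak, and a larger share of those peaks was missing from the clones. A gene-end peak was one within 1000 bp of either annotated end. Of the 95 members, 29 had one in clone 1 (30.5%), 24 in clone 2 (25.3%) and 43 in control (45.3%, 35.02 to 55.81), against 50.4%, 43.2% and 60.9% of all protein-coding genes. Of these 43 members, clone 1 lacked a gene-end peak at 17 (39.5%, 24.98 to 55.59), against 21.1% of all genes that had one, and clone 2 at 19 (44.2%, 29.1 to 60.1), against 30.1%. Neither clone had one at 14 (32.6%, 19.1 to 48.5), against 15.9%. The intervals for clone 1 and for both clones exclude the share of all genes, and that for clone 2 includes it. All 3 lists had one at 21 members (48.8%, against 64.7%).

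The members' gene-end peaks were also weaker in control than those of other genes, and within a score class the shares lay closer together. Their median control score was 6.59, against 8.33 for the gene-end peaks of other genes, and 52.9% scored above the median of the control list, against 73.9%. Among the 24 members whose strongest gene-end peak scored above that median, 2 had none in either clone (8.33%, 1.03 to 27.0), against 6.88% of all genes. Among the other 19, 12 had none in either clone (63.2%, 38.4 to 83.7), against 53.5%. Counted as peaks, 28 of 51 gene-end peaks were found in clone 1 where the rate of other genes' gene-end peaks in the same score deciles gives 30.4, and 27 in clone 2 where it gives 24.7. Of the gene-end control peaks, those of KCNAB2, KCNQ1, KCNH6, KCNG3 and KCNT1 also lay within 1000 bp of an end of another protein-coding gene, so which gene they belong to cannot be told apart. Among the 71 members with a known strand, 28 control gene-end peaks lay at the start of 26 genes and 1 at a 3′ end. That 1 was at KCNH6, which encodes a channel of the ERG group. Of the 28 at starts, 16 were found in clone 1, 19 in clone 2, 14 in both and 7 in neither. Counted as genes at start sites alone, 9 of 27 members had none in clone 1 (against 19.6% of all genes counted so), 8 none in clone 2 (against 27.6%) and 7 none in either (against 14.2%). With the lists brought to equal length, 6 of 27 had none at a gene end in clone 1 (against 15.9%), 6 none in clone 2 (against 20%) and 4 none in either (against 9.35%).

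**Figure D2:**
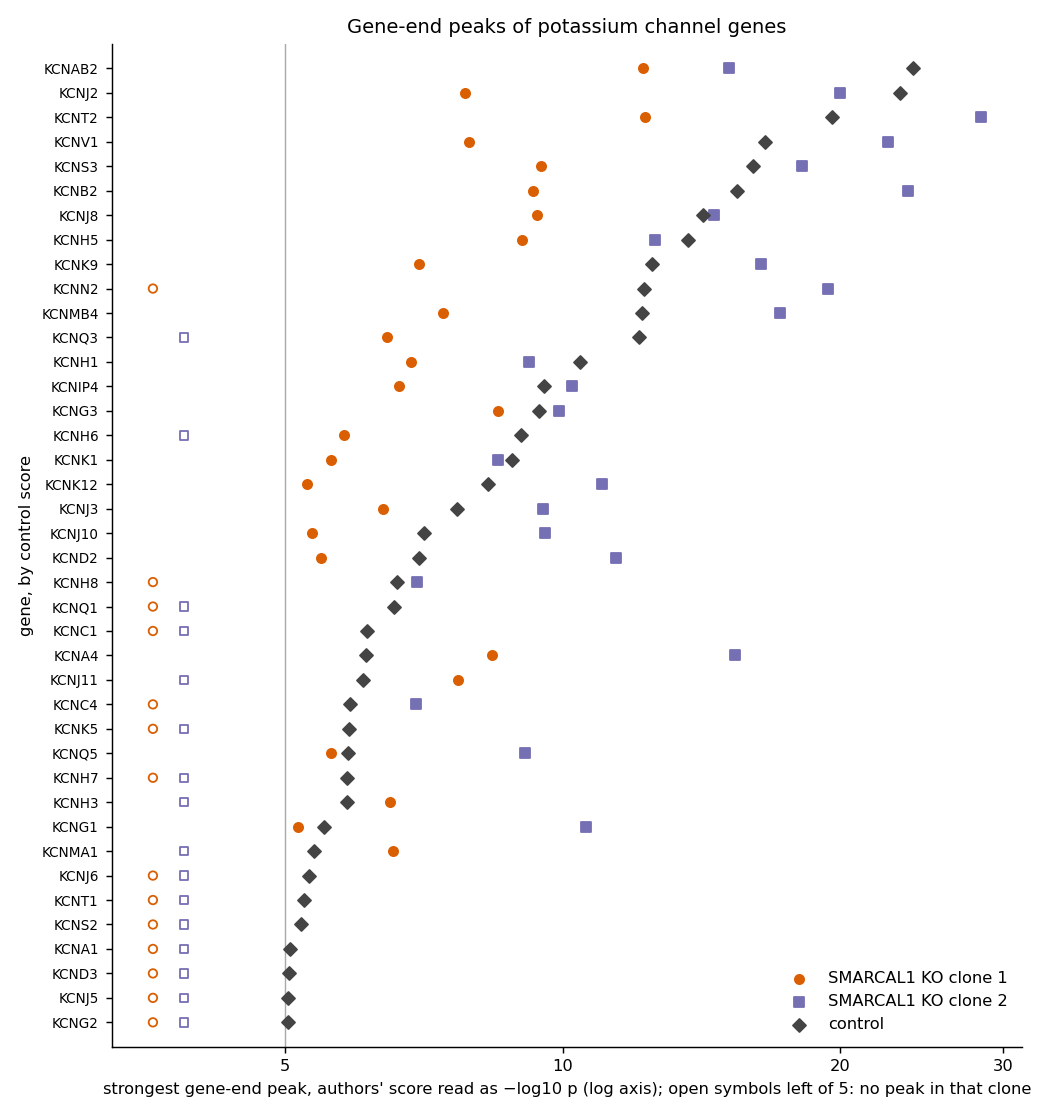
Score of the strongest gene-end peak (horizontal log axis, the authors' score, read here as −log10 p) in clone 1, clone 2 and control for 40 potassium channel genes that had one in control, ordered by control score; open symbols stand for no peak in that clone. All 11 genes shown with open symbols in both clones have control scores of 6.57 or less, and the 9 genes with the highest control scores have a peak in all 3 lists. Scores of different lists are not on a common scale.

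Promoter sequences are shown for the members whose start-site peaks, found in all 3 lists, were strongest in control. They are also shown for the strongest that lay over the promoter in control and had no clone peak within 1000 bp of the start. In control the kept ones shown scored 19.6 to 24.0 and the missing ones 5.25 to 5.86, so the sets also differ in control score. KCNH8 and KCNC1, whose start-site peaks scored higher in control than these missing ones, are not shown. Clone 2 had a peak near the start of KCNH8, and the peak of KCNC1 lay beside its promoter. The sequences are from RefSeq (GRCh38.p14) and run from 250 bases before to 50 after the annotated start, 5′ to 3′ along the gene. Capitals mark matches on either strand to 3 short elements: CCAAT (or ATTGG), bound by NF-Y, GGGCGG (or CCGCCC), bound by SP and KLF factors, and the TATA element TATAAA (or TTTATA). Matches may overlap, and a match is a run of letters, not a shown binding site. These elements occur in 36.3%, 58.5% and 9.64% of the 15812 promoters in the table. KCNAB2 (chr1:5992426-5992725, plus strand), KCNJ2 (chr17:70169282-70169581, plus strand) and KCNT2 (chr1:196608391-196608690, minus strand) had a promoter peak in all 3 lists.
KCNAB2: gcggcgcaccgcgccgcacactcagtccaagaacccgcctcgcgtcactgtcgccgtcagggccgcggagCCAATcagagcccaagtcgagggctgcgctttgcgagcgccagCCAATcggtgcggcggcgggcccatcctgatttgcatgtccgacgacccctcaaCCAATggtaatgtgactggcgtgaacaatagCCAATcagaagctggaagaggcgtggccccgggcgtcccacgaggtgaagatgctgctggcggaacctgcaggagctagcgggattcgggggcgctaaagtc
KCNJ2: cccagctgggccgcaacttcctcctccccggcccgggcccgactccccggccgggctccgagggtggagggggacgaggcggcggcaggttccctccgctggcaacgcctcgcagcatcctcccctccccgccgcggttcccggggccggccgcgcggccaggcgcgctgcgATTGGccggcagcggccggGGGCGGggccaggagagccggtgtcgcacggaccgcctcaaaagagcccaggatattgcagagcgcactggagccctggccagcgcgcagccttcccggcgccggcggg
KCNT2: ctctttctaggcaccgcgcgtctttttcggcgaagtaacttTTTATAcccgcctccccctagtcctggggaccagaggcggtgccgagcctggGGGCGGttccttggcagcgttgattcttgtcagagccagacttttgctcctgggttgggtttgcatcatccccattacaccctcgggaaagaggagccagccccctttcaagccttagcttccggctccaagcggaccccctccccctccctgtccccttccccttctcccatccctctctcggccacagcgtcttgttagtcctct
The promoters of KCNK5 (chr6:39229426-39229725, minus strand), KCNJ6 (chr21:37916408-37916707, minus strand) and KCNT1 (chr9:135701935-135702234, plus strand) had a peak in control only.
KCNK5: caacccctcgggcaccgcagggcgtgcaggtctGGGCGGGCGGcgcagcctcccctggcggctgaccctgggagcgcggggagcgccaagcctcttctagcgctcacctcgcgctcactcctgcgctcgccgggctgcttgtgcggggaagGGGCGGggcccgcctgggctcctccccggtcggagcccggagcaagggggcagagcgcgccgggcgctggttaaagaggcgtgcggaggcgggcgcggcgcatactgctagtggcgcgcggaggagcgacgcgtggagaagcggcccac
KCNJ6: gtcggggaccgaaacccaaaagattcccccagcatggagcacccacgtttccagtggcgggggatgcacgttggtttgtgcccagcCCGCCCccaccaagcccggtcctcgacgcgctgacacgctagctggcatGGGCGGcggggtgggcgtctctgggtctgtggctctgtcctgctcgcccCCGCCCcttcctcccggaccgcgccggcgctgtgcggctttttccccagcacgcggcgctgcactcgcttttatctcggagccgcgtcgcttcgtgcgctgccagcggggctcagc
KCNT1: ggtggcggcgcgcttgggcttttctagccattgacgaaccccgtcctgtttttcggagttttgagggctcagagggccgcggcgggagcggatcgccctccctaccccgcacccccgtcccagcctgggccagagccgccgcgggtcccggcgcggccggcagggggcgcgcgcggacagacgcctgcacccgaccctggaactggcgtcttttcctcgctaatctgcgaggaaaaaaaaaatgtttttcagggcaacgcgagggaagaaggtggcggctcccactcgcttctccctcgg
All 6 are rich in G and C, from 60% in KCNT2 to 78% in KCNJ2. KCNAB2 held 4 CCAAT elements and KCNT1 held none of the 3 elements. Their ratios of observed to expected CpG were 0.979, 0.855 and 0.588 in KCNAB2, KCNJ2 and KCNT2, and 0.910, 0.913 and 1.01 in KCNK5, KCNJ6 and KCNT1, so the promoters that only control had were not the poorer in CpG.

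Among the voltage-gated pore genes, 25 of 40 had a control gene-end peak, and 10 of these had one in all 3 lists and 10 in control only. Of all protein-coding genes 60.9% had one in control, and of these 64.7% had one in all 3 lists and 15.9% in control only. The windows of the voltage-gated genes held 142 control peaks, of which 93 were absent in clone 1 (65.5%, 57.1 to 73.3), 88 in clone 2 (62.0%, 53.5 to 70.0) and 75 in both. Of all control peaks 57.9%, 57.1% and 46.7% were absent. The intervals of this role and of every role below include these shares. KCNF1 had no peak in any list. The kept ones include modifier subunits that do not conduct on their own. KCNV1 scored 7.92 in clone 1, 22.5 in clone 2 and 16.6 in control, and KCNS3 scored 9.47, 18.2 and 16.1. Both subunits assemble with delayed rectifier pores, and KCNB2, such a pore, scored 9.29, 23.7 and 15.5. KCNH5, an EAG-type channel, scored 9.05, 12.6 and 13.7. Each of these values was above the median of its own list. The weaker kept peaks were those of KCNH1, KCNG3, KCND2, KCNA4, KCNQ5 and KCNG1. KCNA4, which carries an inactivating A-type current, scored 8.39 in clone 1 and 15.4 in clone 2, and its 6.12 in control lay below the control median. KCND2, an A-type channel of neurons and heart, had 2 control peaks at its start, of which clone 1 had the second and clone 2 the first, so its clones did not share a site there. KCNG1, another modifier, kept the weaker of its 2 control gene-end peaks.

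The voltage-gated genes where only control had such a peak had weak control scores. KCNQ1, the pore of a slow cardiac current, scored 6.57, and KCNC1, a fast delayed rectifier of fast-spiking neurons, scored 6.14. KCNH7 scored 5.84, KCNS2 5.21, KCNA1 5.07, KCND3 5.06 and KCNG2 5.04, all below the control median of 6.26. KCNQ1 had no shared site. Its window held 1 clone 1 peak, no clone 2 peak and 7 control peaks, and no control peak was found in either clone. Its control scores ran from 5.03 to 6.57, and at the rate of the whole list for such scores 1.03 would be found in clone 1 and 0.953 in clone 2.

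Some voltage-gated genes had the peak in 1 clone. KCNH8, a channel of the ELK group, had it in clone 2 at 6.95 and control at 6.62, and none of its 4 control peaks was found in clone 1 while all 4 were found in clone 2. KCNC4 had it in clone 2 at 6.93 and control at 5.89. KCNQ3, a subunit of the M-type current, had it in clone 1 at 6.45 and control at 12.1, at the gene end of lower coordinate. At its other end a control peak of 6.68 was found in clone 1 at 5.82, and one of 6.10 in neither clone. The strand of KCNQ3 was not in the promoter table, so which end is the start was not determined. KCNH6 had a gene-end peak in clone 1 at 5.80 and control at 9.03, and KCNH3 one in clone 1 at 6.51 and control at 5.84. For KCNH6 a clone 2 peak overlapped the same control site but lay outside the gene-end window. KCNA6 and KCNV2 had a gene-end peak in clone 1 only, at 5.90 and 5.92.

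Auxiliary subunit genes ranged from the strongest control gene-end peak of all members, kept in both clones, to no peak at all. KCNAB2, which encodes a cytoplasmic beta subunit with the fold of an aldo-keto reductase, had the strongest control gene-end peak of all members, at 12.2 in clone 1, 15.1 in clone 2 and 24.0 in control. All 3 Kv beta genes had peaks in their windows, and of their 13 control peaks 6 were absent in clone 1 (46.2%, 19.2 to 74.9), 4 in clone 2 (30.8%, 9.09 to 61.4) and 3 in both. The 4 KChIP genes had 59 control peaks, of which 39 were absent in clone 1 (66.1%, 52.6 to 77.9), 32 in clone 2 (54.2%, 40.8 to 67.3) and 28 in both. KCNIP4 was the 1 KChIP gene with a control gene-end peak, at 6.64 in clone 1, 10.2 in clone 2 and 9.56 in control. KCNIP3 had a peak within 1000 bp of its RefSeq start in all 3 lists, at 6.11 in clone 1, 9.07 in clone 2 and 6.52 in control. That start lies inside the annotated gene body, so the peak was counted as interior. The KCNE genes, which are short (median 7.38 kb, against 40.5 kb for all members), were almost bare. KCNE1, KCNE3, KCNE4 and KCNE5 had no peak in any list, and the 1 control peak near KCNE2 was absent in both clones. KCNE1 has a near-identical copy, so its lack of peaks is uncertain. Among the BK beta subunits KCNMB4, best known from brain, had a gene-end peak at 7.42, 17.2 and 12.2, and 5, 4 and 4 of the group's 9 control peaks were absent in clone 1, in clone 2 and in both.

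The inward rectifiers, with a median length of 29.1 kb against 40.5 kb for all members, held 27 control peaks, and their strongest ones were shared. KCNJ2, whose channel holds the resting potential near the potassium equilibrium, scored 7.84 in clone 1, 19.99 in clone 2 and 23.22 in control. KCNJ8, the pore of a vascular ATP-sensitive channel, scored 9.38, 14.6 and 14.2. Each had this 1 peak only in its window. KCNJ10, a channel of glia, and KCNJ3, a G protein-gated subunit, were also kept, with control scores of 7.08 and 7.69. KCNJ6 and KCNJ5, which like KCNJ3 are gated by G proteins, had a gene-end peak in control only, at 5.31 and 5.04. KCNJ11, the pore of the ATP-sensitive channel of pancreatic beta cells, had it in clone 1 at 7.71 and control at 6.07. Of the 27 control peaks of the group, 14 were absent in clone 1 (51.9%, 31.9 to 71.3), 15 in clone 2 (55.6%, 35.3 to 74.5) and 12 in both. KCNJ1, KCNJ4, KCNJ15 and KCNJ16 had no peak in any list. KCNJ12 and KCNJ18 are near-identical copies, so their peaks, 2 and 1 in control, are uncertain.

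Among the K2P leak channels, which set background conductance, KCNK9, KCNK1 and KCNK12 kept a gene-end peak. KCNK9, an acid-sensitive channel, scored 6.99 in clone 1, 16.4 in clone 2 and 12.5 in control, at the gene end of lower coordinate. A peak at its other end scored 5.25, 11.6 and 6.59, and its strand was not in the promoter table. KCNK5, a channel opened by alkaline solution, had its start-site peak in control only at 5.86, and all 3 of its control peaks were absent in both clones. The group had 43 control peaks, of which 24 were absent in clone 1 (55.8%, 39.9 to 70.9), 27 in clone 2 (62.8%, 46.7 to 77.0) and 20 in both. KCNK7, KCNK16 and KCNK17 had no peak in any list.

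The pore genes of the calcium- and sodium-activated channel family held the second most control peaks of any role, 60. Of these, 40 were absent in clone 1 and 40 in clone 2 (66.7%, 53.3 to 78.3, in each), and 34 in both (56.7%, 43.2 to 69.4). KCNT2 had a gene-end peak at 12.3 in clone 1, 28.4 in clone 2 and 19.6 in control, while its relative KCNT1 had one in control only, at 5.25. KCNMA1 had one in clone 1 at 6.55 and in control at 5.37. KCNN4, an intermediate-conductance channel also known from lymphocytes and epithelia, had a gene-end peak in clone 1, at 5.64, which overlapped a control peak of 8.99 that lay just outside the gene-end window and was absent in clone 2. KCNN2, a small-conductance channel, had one in clone 2 at 19.4 and control at 12.3, at an upstream annotated start. A second KCNN2 peak lay over the RefSeq start further in (chr5:114360809-114362750) and was in all 3 lists, at 15.5 in clone 1, 24.4 in clone 2 and 16.3 in control. Of the 6 control peaks of KCNN2, 4 were found in clone 1 and all 6 in clone 2, which had 2 more peaks that overlapped none in control.

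Peaks inside the genes were then set against those at the ends. Interior peaks were those in the gene body and more than 1000 bp from its ends, with introns and exons pooled. Of 126 interior clone 1, 116 interior clone 2 and 253 interior control peaks, the control ones were 71.7% of all control peaks in the windows. Of the 51 gene-end control peaks 23 were absent in clone 1 (45.1%) and 24 in clone 2 (47.1%), and of the 253 interior ones 175 (69.2%) and 158 (62.5%). Absent in both were 18 at gene ends (35.3%) and 138 in the interior (54.5%). In the windows of other genes the absent shares in clone 1, clone 2 and both were 27.6%, 36.0% and 21.8% at gene ends and 65.4%, 63.0% and 53.5% in the interior. So the interior peaks of the members were absent about as often as those of other genes. The 49 control peaks in the flanks were absent at 23 in clone 1, 28 in clone 2 and 20 in both. Of these 49, 17 lay at the end of another gene, and 3 of the 17 were absent in clone 1, 7 in clone 2 and 3 in both. Of the other 32, 20 were absent in clone 1, 21 in clone 2 and 17 in both, so the neighbours' gene-end sites were the flank peaks most often found.

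The control score separated the found from the absent in both positions. Of the gene-end peaks up to the control median of 6.26, 6 of 24 were found in clone 1 and 5 of 24 in clone 2, and of the interior ones 20 of 150 (13.3%) and 26 of 150 (17.3%). Other genes had 32.0% in clone 1 and 16.6% in clone 2 at gene ends, and 14.1% and 13.6% in the interior. Between that and the 80th percentile of the list, a score of 9.59, 10 of 14 gene-end peaks were found in each clone (71.4%), and 29 of 70 (41.4%) and 37 of 70 (52.9%) interior ones. Other genes had 72.5% and 60.4% at gene ends, and 44.1% and 50.8% in the interior. Above it 12 of 13 gene-end peaks were found in each clone (92.3%), and 29 of 33 (87.9%) and 32 of 33 (97.0%) interior ones. Other genes had 98.1% and 97.3% at gene ends, and 91.0% and 94.8% in the interior. All 13 gene-end and 33 interior peaks of that class were found in at least 1 clone. When the score deciles were weighted equally, clone 1 had 50.7% of the gene-end and 37.1% of the interior peaks, which differ by 13.6 points (0.409 to 26.8, counting error of the weighted shares). In clone 2 the shares were 48.2% and 43.9%, a difference of 4.24 points (−8.50 to 17.0). For other genes the differences were 16.6 and 2.60 points. Gene-end peaks were also wider in the members, with a median of 739 bp against 351 bp, and the part of width in the difference was not tested apart from these strata. In strata of both score and width the members' differences were 1.69 points in clone 1 (−16.3 to 19.6) and 0.613 points in clone 2 (−17.1 to 18.3). For other genes they were 3.44 points in clone 1 (0.437 to 6.43) and −8.24 points in clone 2 (−10.6 to −5.87). Only strata that held both kinds of peak entered, 18 for the members and 25 for other genes. The differences of members and other genes therefore do not cover the same strata.

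**Figure D3:**
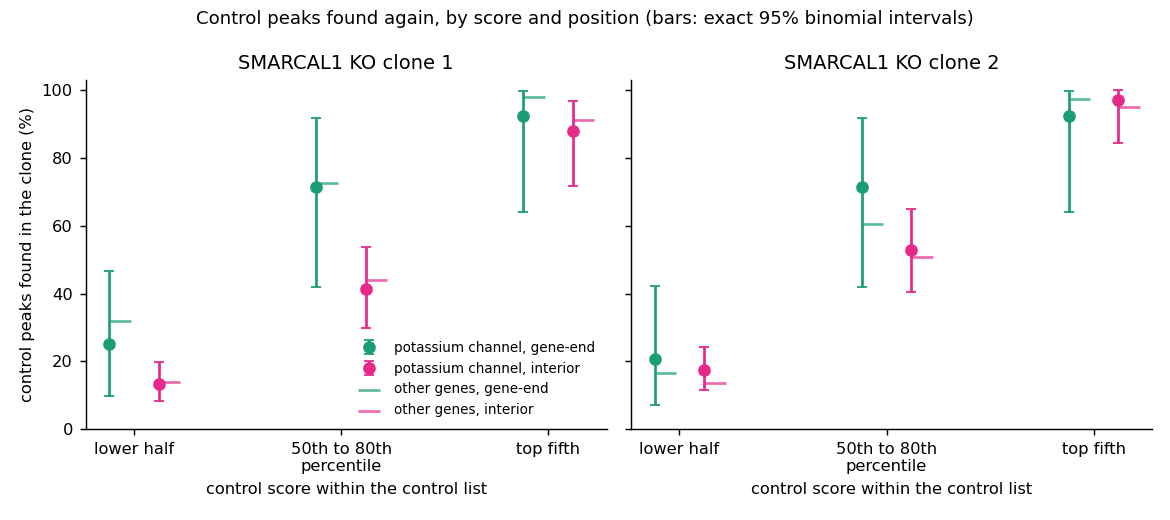
Share of control peaks found in clone 1 (left) and clone 2 (right) in 3 classes of control score, for gene-end and interior peaks of potassium channel genes (points, with exact 95% binomial intervals) and of other protein-coding genes (dashes). In the lowest class 25% of gene-end and 13.3% of interior member peaks were found in clone 1, and in the highest class 92.3% and 87.9%.

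The strongest interior sites were shared by all 3 lists, and most lay far from the start. The strongest control peak of any member was in KCND2 (chr7:120583772-120584694), 311 kb from its start, at 14.0 in clone 1, 26.3 in clone 2 and 29.9 in control. A second KCND2 site, 134 kb in, scored 6.84, 17.0 and 15.8. KCND2 therefore held shared interior sites while its start-site peaks were weak. KCNIP4 had a site 1109 kb from its start (chr4:20839894-20840461) at 7.56, 14.7 and 19.1. KCNC2, a fast delayed rectifier, had 1 control peak in its window, 31.6 kb in (chr12:75178012-75178405), at 8.07, 29.7 and 18.7. The KCNT2 site 49.8 kb in (chr1:196558466-196558755) scored 11.8, 25.7 and 17.0. In control these sites scored in the range of the strongest gene-end peaks or above it. KCNMA1 had sites 287 and 124 kb in, with control scores of 18.1 and 14.1, and KCNK2, a mechanosensitive leak channel, had one 109 kb in with 14.9. The KCNN2 peak at its RefSeq start and one near the RefSeq start of KCNMB3, with 15.0, complete the 10 strongest.

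The strongest interior peaks absent in both clones were of middle strength. They were in KCNMA1 at 9.55 (chr10:77501261-77501753), KCNK2 at 9.42 (chr1:215181611-215182387), KCNH1 at 9.29, KCNIP4 at 9.11 and 9.05, KCNU1 at 8.80, KCNIP1 at 8.46, 8.36 and 8.24, and KCNQ3 at 7.92. KCNU1 encodes a channel of sperm. All 10 lay above the control median of 6.26 and below the 80th percentile of 9.59. The absent KCNMA1, KCNK2 and KCNIP4 sites thus stood in genes that also held strong shared ones.

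Single genes differed in how much the clones kept, relative to the scores of their control peaks. KCNT2 had 4 of 21 control peaks found in clone 1 where 6.73 would be at the rate of the whole list, and 5 in clone 2 where 6.51 would be, and 15 were absent in both. KCNB2 had 1 of 12 found in clone 1 and 2 in clone 2, where 3.79 and 3.87 would be, and KCNH1 had 3 and 3 of 12, where 5.30 and 5.44 would be. These genes lay below that rate in both clones. KCNQ5 lay above it, with 11 of 21 in clone 1 and 12 in clone 2, where 8.19 and 8.39 would be. In KCNIP4 the clones parted: 12 of 37 were found in clone 1 and 18 in clone 2, where 13.2 and 13.7 would be. Of the remaining genes of the 10, KCNIP1 and KCNJ6 also lay below that rate in both clones. KCNIP1 had 4 and 6 of 16 where 6.95 and 7.20 would be, and KCNJ6 had 1 and 2 of 11 where 2.54 and 2.43 would be. KCNQ3 lay close to it, with 8 and 8 of 20 where 8.03 and 8.15 would be. KCNMA1 had 10 and 8 of 24 where 9.76 and 9.89 would be. KCND2 had 4 and 6 of 9 where 4.72 and 4.84 would be, and 2 were absent in both. With counts this small none of these departures was tested.

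**Figure D4:**
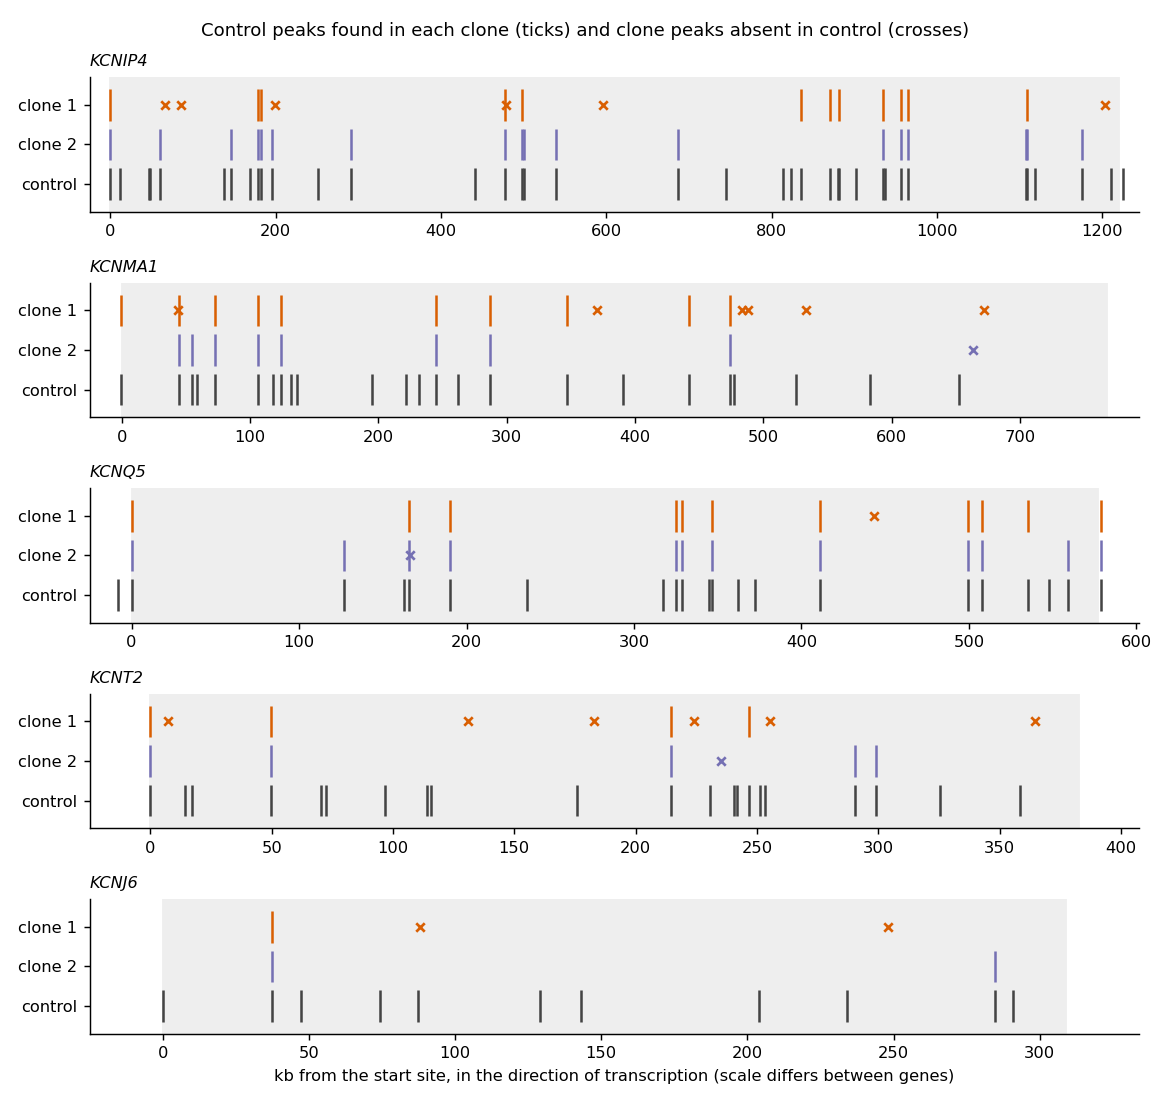
Position of control peaks (bottom row), of control peaks found in each clone (ticks, upper rows) and of clone peaks that overlap no control peak (crosses) along KCNIP4, KCNMA1, KCNQ5, KCNT2 and KCNJ6, in kb from the start site in the direction of transcription, with the gene body shaded. KCNQ5 keeps 11 and 12 of its 21 control peaks in clone 1 and clone 2, and KCNT2 keeps 4 and 5 of 21.

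Across the 80 members with a control peak, 17 had no control peak found in either clone (21.3%, 12.9 to 31.8), against 16.3% of all genes with a control peak. Besides KCNQ1 and KCNK5 they include KCNC1, KCND3, KCNK3, KCNN3 and KCNT1. At the other end, 13 had every control peak found in both clones (16.3%, against 21.7% of all genes), among them KCNJ2, KCNJ8, KCNV1, KCNH5 and KCNA4. Long genes were examined apart because they hold most of the peaks. The 17 members of at least 300 kb held 215 control peaks, 25.4 per Mb of their windows, against 18.1 per Mb for 754 other genes of that length. Of the 215, 147 were absent in clone 1 (68.4%, 61.7 to 74.5), 125 in clone 2 (58.1%, 51.2 to 64.8) and 112 in both (52.1%, 45.2 to 58.9). The other long genes had 60.5%, 54.2% and 46.7%, so the interval of the members excludes the share of the others in clone 1 only. Whether clone 1 differs from clone 2 in this was not tested.

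Some sites were in both clones and not in control. Of the 56 clone 1 peaks absent in control 46 were interior, 8 in the flanks and 2 at gene ends, and of the 15 such clone 2 peaks 14 were interior and 1 in a flank. At 6 sites a clone 1 peak and a clone 2 peak overlapped each other and no control peak (3.16% of the 190 clone 1 peaks, 1.17 to 6.75, against 1.48% of the whole clone 1 list). There were 2 in KCNH7, which encodes an ERG-type channel, at 6.91 in clone 1 and 10.8 in clone 2 and at 5.08 and 7.24. There were 2 in KCNQ3, at 5.63 and 8.01 and at 5.83 and 13.8. KCND2 held 1 at 5.27 and 12.6, 154 kb from its start, and 1 lay upstream of KCNS3 at 5.14 and 8.49. In clone 1, 5 of the 6 scores lie below its median of 6.07, and in clone 2, 4 of 6 lie below its median of 11. At no member did both clones share a gene-end peak that control lacked, which 44 of all genes (0.22%) had.

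The members' promoters were poorer in CpG than promoters in general, and most promoter peaks lay over CpG-rich ones. Of the 95 members 71 have a promoter in the RefSeq table. The median ratio of observed to expected CpG was 0.603, against 0.763 over 15812 promoters. A ratio of at least 0.6 was found in 36 members (50.7%, against 65.8%). Of these 36, 14 had a peak over the promoter in clone 1 (38.9%), 13 in clone 2 (36.1%) and 22 in control (61.1%), against 66.4%, 56.7% and 79.8% of all such promoters. Of the 35 below 0.6, 3 had one in clone 1 (8.57%), 1 in clone 2 (2.86%) and 1 in control (2.86%), against 10.5%, 7.36% and 14.1% of all such promoters. In all, 12 members had a promoter peak in all 3 lists (16.9%, against 36.5%) and 46 in none (64.8%, against 41.0%). Control alone had one at 6 (8.45%, against 8.54%), clone 1 and control at 3 (4.23%, against 9.37%), clone 2 and control at 2 (2.82%, against 2.91%), and a clone alone at 2 (2.82%, against 1.74%), KCNJ3 and KCNV2. At KCNJ3 the control peak nearest the start, at 7.69, ended before the promoter window and was found in both clones. The median CpG ratio was 0.837 where all 3 lists had a peak, 0.852 where only control did and 0.366 where none did.

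**Figure D5:**
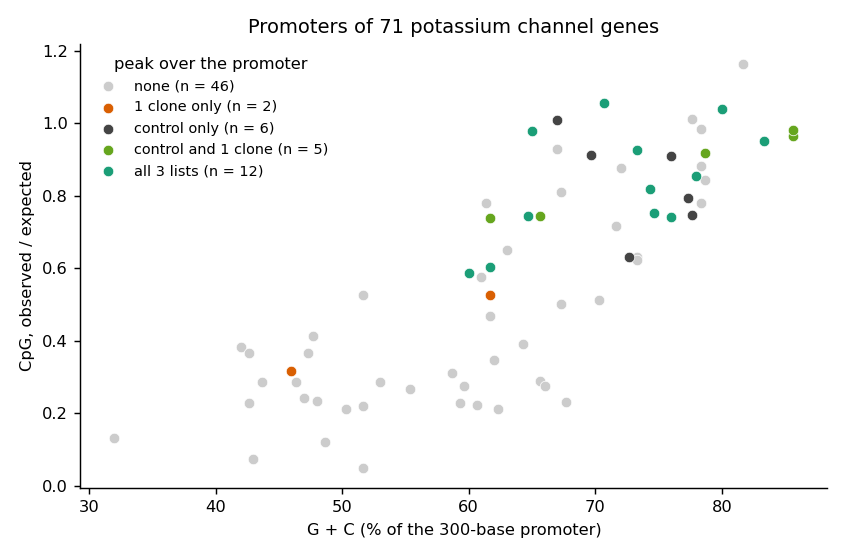
Ratio of observed to expected CpG (vertical axis) against the share of G and C in percent (horizontal axis) for the RefSeq promoters, 300 bases each, of 71 potassium channel genes, coloured by which lists had a peak over the promoter. The 12 with a peak in all 3 lists and the 6 with one in control only overlap at the CpG-rich end (medians 0.837 and 0.852). The 46 without a peak span the whole range, from 0.0501 to 1.16.

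Most short elements were about as common in the members as in all promoters, and the largest ratio between the shares rests on 2 genes. GGGCGG was in 43 of 71 (60.6%, against 58.5%), CCAAT in 24 (33.8%, against 36.3%), TATAAA in 6 (8.45%, against 9.64%) and the AP-1 element TGANTCA in 4 (5.63%, against 5.76%). The RE1 element, bound by REST, a repressor of neuronal genes, was searched in its left and right parts. The left part, TTCAGCACC, was in 2 members (2.82%, against 0.398%), KCNH6 and KCNK3, and the right part, GGACAGCNC, in 3 (4.23%, against 2.43%), the same genes and KCNG4. AP-1 matches were in KCNA3, KCNJ4, KCNJ15 and KCNJ16. None of these 7 promoters had a peak in any list. Of the 71 member promoters 64.8% had none, and of all 15812 promoters 41.0%. Over all promoters, no list had a peak at 525 of the 910 with TGANTCA. The same held at 36 of the 63 with the left part and at 140 of the 384 with the right part.

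Genes that work beside potassium channels were counted in the same way. Over all protein-coding genes, the background for both lists here, 60.9% had a control gene-end peak. Of these, 21.1% had none in clone 1, 30.1% none in clone 2 and 15.9% none in either. Of a list of 27 partner and transporter genes, 12 had a control gene-end peak, of which 3 had none in clone 1, 2 none in clone 2 and 2 none in either. Those with one in all 3 lists included the sodium pump beta subunits ATP1B1 and ATP1B3, the chloride cotransporter SLC12A2, the pacemaker channel HCN3, and REST with its partner RCOR1. ATP1B1 scored 8.15 in clone 1, 16.7 in clone 2 and 12.1 in control, and REST scored 7.51, 9.92 and 13.5. Control alone had one at HCN2 and SLC12A4. Of 20 sodium and calcium channel pore genes, 11 had a control gene-end peak, of which 5 had none in clone 1, 5 none in clone 2 and 4 none in either: CACNA1A, CACNA1B, CACNA1G and CACNA1H. In the windows of these 20 genes 56 of 85 control peaks were absent in clone 1 (65.9%, 54.8 to 75.8). In clone 2 57 were absent (67.1%, 56.0 to 76.9), and in both 48 (56.5%, 45.3 to 67.2). These intervals include the shares of the potassium channel windows and those of all control peaks (57.9%, 57.1% and 46.7%).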

How the data were processed

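The files used are 3 peak lists of MDA-MB-436, each merged by the authors over the replicates of 1 arm. The tools named are MACS2, HISAT2 and ChIPseeker and the builds hg38 and mm10, per the submitters' processing notes. Their versions, settings and the way replicates were merged are not stated in the labels. The deposited score of a peak is −log10 of a p-value: this reading comes from the values, none of which is below 5. Of the 353 control peaks in the members' windows, 145 have scores with more than 5 decimals, as a mean over several calls would. Read depth is unknown.

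From these lists, peaks were assigned to genes of the RefSeq table (GRCh38.p14): gene-end within 1000 bp of an end, interior, or flank within 10 kb. A peak was found when at least 1 bp overlapped. Found shares were compared within 10 score deciles of the control list, in Python 3.11.15 with numpy 2.4.6, pandas 2.3.3 and scipy 1.17.1; the code was tested on simulated data. Intervals are exact binomial at 95%. No exons were used, so introns and exons are not separated.

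Members and gene lists were chosen with earlier results of these data known. Named genes are the 10 members with the most control peaks, those with gene-end peaks in all 3 lists or in 1 clone, and the 10 strongest gene-end and interior control peaks absent in both clones and interior peaks found in both. Other genes are named to complete a count or group, or to show a gap between the clones. Alternatives changed the overlap, score threshold, list length, window, gene-end distance and members. A merged list shows no replicate error. A few genes that enter the counts are not reported here by name.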

Additional observations from a re-analysis of the deposited data

How the results depend on the processing

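The absent shares depended on the strength of the peaks counted and on the overlap asked for. Among control peaks above the list median 36.13%, 29.03% and 20.65% were absent in clone 1, in clone 2 and in both, and with lists of equal length 43.93%, 33.53% and 26.01%. When at least 50% of a control peak had to be overlapped, 88.39% were absent in clone 2 and 60.62% in both. As a mean of per-gene shares, 53.07% were absent in clone 1 and 44.44% in both. Among the 145 peaks whose control scores have more than 5 decimals, as a mean over calls would, an alternative chosen after seeing the data, 40%, 37.93% and 26.21% were absent. With start sites only, 9 members had no gene-end peak in clone 1, 8 none in clone 2 and 7 none in either, of 27 with one in control. With lists of equal length these counts were 6, 6 and 4, also of 27. Fewer peaks or genes enter each of these 3 restrictions; other causes were not tested. The other 52 values stayed within 1 interval of the reported share or within 1.5 times the count. These intervals are wide for the gene-end minus interior difference. In clone 1 it was 13.6 points, but 1.69 in strata of score and width and 24.1 without weighting by score. In clone 2 it was 4.24 points, but -3.19 at 50% overlap. Without the 5 members with the most control peaks it was 11.1 in clone 2, and without weighting by score 15.4. No paired analysis was possible because the merged lists carry no replicate values, and for the same reason no replicate could be left out. The unknown read depth limits all statements on weak peaks: absence from a list is not absence of accessibility.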
